A study of Mus musculus with 54 samples.

Results

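The 10 libraries described here came from lumbar spinal cord (SC) motor neurons of mice at postnatal day 56 (P56), out of 54 libraries in the series. They were chosen by sample label and comprise all 5 SC P56 libraries of mSOD mice and all 5 of wild-type mice. The mSOD mice carried SOD1G93A, a transgene of a mutant human SOD1 allele known to cause amyotrophic lateral sclerosis (ALS), and the wild-type mice were littermates without it. The series places P56 before and P112 after the start of symptoms. Neurons were cut from tissue with a laser (laser capture microdissection). Smart-seq2, which amplifies whole polyadenylated transcripts and uses no molecular identifiers, gave the libraries. As background on the model, the transgene runs from the human SOD1 promoter and is active in many cell types, so motor neurons are not the only mutant cells in these mice. How many cells or animals each library holds is not given in the sources used here. The labels call the libraries biological replicates without tying them to animals, so the p-values measure the spread between libraries. Unless a smaller fit is named, that spread was estimated over all 54 libraries and not from these 10 alone. Replicate numbers only name libraries, in accession order, and every series of 5 values runs from replicate 1 to replicate 5. Library names carry a project prefix: all 5 mSOD libraries and wild-type replicates 3, 4 and 5 were from project P6362, and wild-type replicates 1 and 2 were from project P11355.

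Lumbar motor neurons drive the hindlimb muscles, and in mice with mutant SOD1 those that innervate fast-twitch fibres lose their muscle contacts earliest. A pathway studied in this disease is the integrated stress response, in which several kinases phosphorylate the translation factor eIF2α. General protein synthesis then falls while the transcription factor ATF4 is made in larger amount. ATF4, together with its partners CHOP (encoded by Ddit3) and ATF3, switches on genes for amino acid synthesis and import, tRNA charging and secreted stress signals.

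Each library held 1542114 to 4732613 counts over 18282 to 22517 genes. Human SOD1 took 4.68 to 5.20% of counts in the mSOD libraries and 0.000444 to 0.00298% (20 to 76 counts) in the wild-type libraries, which matched every label. Mouse Sod1, whose sequence is close to the human gene, stood at 894, 712, 782, 838 and 1080.4 CPM (reads of a gene relative to the scaled library total) in mSOD and at 307, 622, 1700.0, 918 and 986 CPM in wild type. These ranges overlapped, and Sod1 was not called (log2 change −0.42, SE 0.20, adjusted p = 0.385). The cholinergic gene Chat was present in every library, at 45.7 to 91.4 CPM in mSOD and 54.5 to 90.7 CPM in wild type, as was the neurofilament gene Nefm at 5078 to 7263 CPM and 8379.9 to 14509 CPM. Both belong to a list of 18 motor neuron identity genes. Sums over that list and over markers of other cells are given below. Libraries of 1 group were not copies of each other: the chi-square statistic per degree of freedom between replicate pairs ran from 5.12 to 20.5 in mSOD and from 5.49 to 95.1 in wild type.

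Genes were called at an edgeR adjusted p under 0.05 over the 18493 mouse genes tested, in a fit of all 54 libraries with a term for project. Between mSOD and wild type, 58 genes rose (0.314% of those tested) and 42 fell (0.227%), and 2211 genes had an unadjusted p under 0.05. Across all genes tested the median log2 change was 0.05. In 46 of the 100 called genes the 5 mSOD libraries did not overlap the 5 wild-type libraries; over all genes tested, 228 (1.23%) lay wholly above and 290 (1.57%) wholly below. Within P6362 alone, where 12879 genes could be tested in 5 mSOD and 3 wild-type libraries, 168 genes were called (1.3%), of which 55 rose (0.427%) and 113 fell (0.877%). Of the 100 genes, 88 were tested there, all 88 had the same sign, and 49 were called again. The count rested on single libraries: it was 17 without wild-type replicate 3, and those 17 were all among the 100. Without mSOD replicate 4 it was 59, and it was 52 and 44 without wild-type replicates 4 and 5.

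The integrated stress response was the gene list with most calls in the fit of all 54 libraries, by count, not by share. In that fit 5 of 15 mitochondrially encoded genes rose, and DESeq2 called 8 genes in each of these lists. Of the 32 tested members of the stress response list, 8 rose, against 0.314% of all genes tested, and none fell. A log2 change above 0 was found in 30, and the median was 0.97. Members near 0 in wild type could pass the filter on low counts through other groups. Such members had little room to fall, which bears on these counts and on the median. A total of 9 members of the list lay wholly above wild type in all 5 mSOD libraries, against 1.23% of all genes tested. The 8 genes that rose were Atf4, Ddit3, Atf3, Nupr1, Fgf21, Vldlr, Pycr1 and Phgdh. Within P6362 alone 28 members could be tested, 4 were called and the median was 0.82. With the 10 SC P56 libraries alone 24 could be tested, 2 were called and the median was 0.73. The mitochondrially encoded genes had more calls than this list within P6362 (14 against 4), with the 10 SC P56 libraries alone (10 against 2), with the 18 SC libraries (6 against 5) and without the filter on low counts (12 against 10). Summed over the list, the mSOD libraries held 944 to 1984 CPM and the wild-type libraries 772 to 932 CPM, with mSOD replicate 4 highest and no overlap between genotypes. Without mSOD replicate 4 the list had 3 calls and a median of 0.63, and it had 3 calls without wild-type replicate 4 and 4 calls without wild-type replicate 3 or 5.

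The promoters of these genes are shown because ATF4 is known to bind composite C/EBP-ATF elements whose core letters are TGATGNAA. The printed stretches show where those letters fall in 5 of the list genes that rose. Promoters were taken from RefSeq on build GRCm38.p6, and the 250 bases before each start were searched on both strands. The letters occurred in 1134 of 32851 RefSeq promoters (3.45%), in 282 of the 11296 tested genes that had an entry (2.5%), in 9 of 29 list members (31.0%) and in 5 of the 8 list members that rose (62.5%). Of the other called genes with an entry, 0 of 27 that rose and 1 of 27 that fell (3.7%) held them. The list was written from genes of this response, targets of ATF4 among them. Its share of matches was therefore set in part by that choice and is no separate evidence. The 5 promoters follow, 5′ to 3′ along each gene's strand, with the match in capitals. They are chr1:191183334-191183583 (minus strand) for Atf3, chr7:45615491-45615740 (minus) for Fgf21, chr7:126625471-126625720 (minus) for Nupr1, chr11:120643749-120643998 (minus) for Pycr1 and chr19:27216770-27217019 (plus) for Vldlr.
Atf3: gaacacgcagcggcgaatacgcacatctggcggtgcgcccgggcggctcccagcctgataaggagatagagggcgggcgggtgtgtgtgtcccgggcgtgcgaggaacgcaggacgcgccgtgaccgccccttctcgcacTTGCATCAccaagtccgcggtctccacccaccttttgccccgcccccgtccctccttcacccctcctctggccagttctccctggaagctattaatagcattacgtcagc
Fgf21: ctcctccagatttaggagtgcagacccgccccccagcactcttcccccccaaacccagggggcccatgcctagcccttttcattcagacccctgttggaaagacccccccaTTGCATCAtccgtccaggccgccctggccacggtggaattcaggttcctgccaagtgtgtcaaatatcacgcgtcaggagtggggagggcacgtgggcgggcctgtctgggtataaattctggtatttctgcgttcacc
Nupr1: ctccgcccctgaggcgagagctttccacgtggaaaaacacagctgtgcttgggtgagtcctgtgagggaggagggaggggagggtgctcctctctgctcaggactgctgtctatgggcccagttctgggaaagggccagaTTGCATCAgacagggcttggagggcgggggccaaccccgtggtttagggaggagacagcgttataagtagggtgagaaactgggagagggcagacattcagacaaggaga
Pycr1: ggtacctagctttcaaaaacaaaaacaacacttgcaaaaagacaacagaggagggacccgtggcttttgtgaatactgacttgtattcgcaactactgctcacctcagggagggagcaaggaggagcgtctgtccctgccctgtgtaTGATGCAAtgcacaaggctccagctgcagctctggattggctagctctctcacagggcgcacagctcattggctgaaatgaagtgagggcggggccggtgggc
Vldlr: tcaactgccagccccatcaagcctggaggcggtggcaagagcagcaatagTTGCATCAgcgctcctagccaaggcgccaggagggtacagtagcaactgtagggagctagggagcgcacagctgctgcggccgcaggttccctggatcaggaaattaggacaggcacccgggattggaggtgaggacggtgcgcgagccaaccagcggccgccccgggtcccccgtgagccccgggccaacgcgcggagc
Of the 5, 4 held the letters as the reverse complement TTGCATCA, and Pycr1 held TGATGCAA. The match began 110 bases before the start in both Atf3 and Nupr1, 139 in Fgf21, 103 in Pycr1 and 200 in Vldlr, where 1 of 2 RefSeq promoters held it. Ddit3, Atf4 and Phgdh had no match in this window. A match is a run of letters in the reference and describes neither binding nor a cause of these changes.

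Atf4, the transcription factor at the centre of the response, stood at 139, 164, 87.0, 140.2 and 75.5 CPM in mSOD and at 68.5, 66.7, 64.7, 52.8 and 45.3 CPM in wild type. All 5 mSOD values exceeded the highest wild-type value, and Atf4 rose by a log2 change of 1.02 (SE 0.24, adjusted p = 0.0239; within P6362 1.15, adjusted p = 0.0249). The call was lost without mSOD replicate 1, 2 or 4 or wild-type replicate 3, 4 or 5, with an adjusted p of up to 0.152. Ddit3, which encodes the stress transcription factor CHOP, stood at 67.9, 45.7, 42.7, 120.1 and 27.1 CPM in mSOD and at 13.6, 21.1, 25.0, 9.49 and 14.3 CPM in wild type. Every mSOD library again lay above every wild-type library, with replicate 4 highest (log2 change 1.90, SE 0.39, adjusted p = 0.0105). Within P6362 the Ddit3 change was as large (1.87) but missed the threshold (adjusted p = 0.0988), and the call was lost without mSOD replicate 4 or wild-type replicate 4 or 5 (adjusted p up to 0.0617).

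Atf3, a stress transcription factor that injured neurons also switch on, was close to absent in wild type. It stood at 75.4, 3.24, 8.42, 40.5 and 0 CPM in mSOD and at 0, 0, 0, 0.593 and 0 CPM in wild type. Replicates 1 and 4 held most of the signal, and mSOD replicate 5 had no count. Over all libraries there were 334 counts in mSOD against 1 in wild type, a ratio of 378 after scaling (95% counting interval 67.3 to 14960, for counting error only). Atf3 was called (adjusted p = 0.00459) but not within P6362 (adjusted p = 0.311). Nupr1, a stress-induced chromatin regulator, stood at 5.70, 3.24, 4.49, 24.6 and 4.70 CPM in mSOD and at 0, 0.44, 0, 0 and 0 CPM in wild type. Its 127 mSOD counts against 2 gave a ratio of 71.8 (19.5 to 599), every mSOD library lay above every wild-type library, and it was called with an adjusted p of 0.0176 (within P6362 0.0192). The Nupr1 call was lost without mSOD replicate 4 or wild-type replicate 3, 4 or 5 (adjusted p up to 0.1).

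Fgf21, a secreted hormone of starvation and mitochondrial stress, stood at 55.6, 31.7, 39.8, 82.2 and 7.59 CPM in mSOD and at 0, 1.54, 0, 0 and 3.56 CPM in wild type. The groups did not overlap, and Fgf21 rose by 5.07 on the log2 scale (SE 0.91, adjusted p = 0.00566), a call kept in all 10 fits that left out 1 library, although not within P6362 (4.88, adjusted p = 0.0907) or with DESeq2 (5.03, adjusted p = 0.23). Pycr1, an enzyme of proline synthesis, was low throughout, at 4.38, 11.7, 4.49, 10.9 and 0 CPM in mSOD and at 3.26, 1.76, 0, 0 and 0 CPM in wild type. It overlapped between genotypes, and its call (log2 change 4.87, SE 1.18, adjusted p = 0.0347) was lost without mSOD replicate 2 or 4 or any of wild-type replicates 2 to 5 (adjusted p up to 0.171), and without the project term (2.43, adjusted p = 0.17). Vldlr, a receptor for lipoproteins and reelin, stood at 45.6, 58.0, 82.5, 93.5 and 42.7 CPM in mSOD and at 73.1, 46.2, 19.0, 21.9 and 35.6 CPM in wild type. Here the wild-type libraries split by project: replicates 1 and 2, from P11355, lay within the mSOD range, and replicates 3 to 5 below it. Vldlr was higher in P11355 than in P6362 by 1.13 on the log2 scale (adjusted p = 0.00115), and with the project term it rose in mSOD by 1.29 (SE 0.27, adjusted p = 0.0117; within P6362 1.30, adjusted p = 0.0368). Without the project term the Vldlr change was 0.70 (adjusted p = 0.207). The Vldlr call was lost without mSOD replicate 4 or wild-type replicate 3 or 4 (adjusted p up to 0.114).

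**Figure D1:**
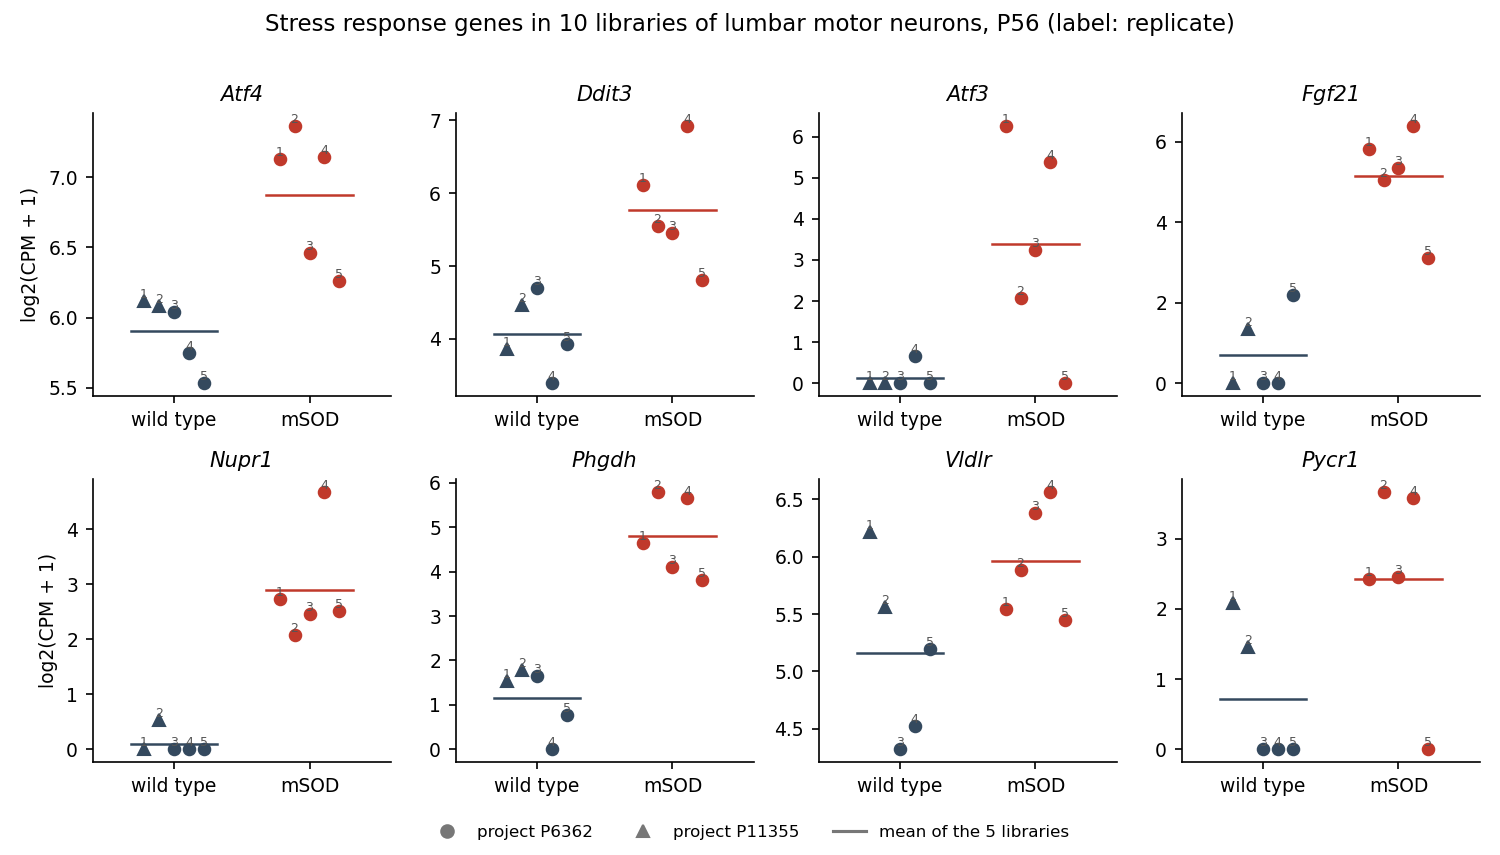
Expression of the 8 integrated stress response genes that rose in SC P56 mSOD libraries, as log2(CPM + 1) on the vertical axis for each library; circles are P6362 libraries, triangles P11355 libraries, and the line is the mean of 5. Atf4, Ddit3, Fgf21, Nupr1 and Phgdh show no overlap between genotypes, while the P11355 wild-type libraries of Vldlr (73.1 and 46.2 CPM) fall within the mSOD range.

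The lists of serine and one-carbon metabolism, amino acid transporters and polyamine metabolism each held at least 1 gene that rose. Phgdh, the first enzyme of serine synthesis from glycolysis, stood at 24.1, 54.1, 16.3, 49.7 and 13.0 CPM in mSOD and at 1.90, 2.42, 2.16, 0 and 0.713 CPM in wild type. The groups were far from overlap, and Phgdh rose by 4.72 on the log2 scale (SE 0.79, adjusted p = 0.00157). It was called within P6362 (4.88, adjusted p = 0.00454) and in all 10 fits without 1 library. Phgdh was the only call among 18 tested genes of serine and one-carbon metabolism (median 0.36, 11 above 0). Shmt2, which makes glycine in mitochondria, had values of 17.1, 14.9, 21.9, 50.6 and 23.9 CPM in mSOD and 4.89, 6.82, 9.06, 8.30 and 12.1 CPM in wild type, which did not overlap, but was not called (log2 change 1.44, adjusted p = 0.064), although it was with DESeq2 (adjusted p = 0.0218) and without the project term (adjusted p = 0.0118).

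Among 17 tested amino acid transporters 2 rose and none fell (median 0.34), and 4 lay wholly above wild type, against 1.23% of all genes tested. Slc38a1, a neutral amino acid and glutamine transporter, stood at 149, 142, 118, 153 and 139 CPM in mSOD and at 113, 102, 39.7, 80.6 and 71.3 CPM in wild type. The groups did not overlap, and Slc38a1 rose by 1.13 (SE 0.19, adjusted p = 0.00157), the same within P6362 (1.13, adjusted p = 0.0108), with the call kept in all 10 fits without 1 library. Without the project term the Slc38a1 change was 0.78 (adjusted p = 0.0524). Slc7a1, a carrier of arginine and lysine, stood at 116, 111, 135, 241 and 67.6 CPM in mSOD and at 84.8, 72.8, 50.9, 67.0 and 54.2 CPM in wild type. It rose by 1.13 (SE 0.24, adjusted p = 0.0122) with mSOD replicate 5 inside the wild-type range, and was not called within P6362 (adjusted p = 0.1125) or without mSOD replicate 4 or wild-type replicate 3 or 5 (adjusted p up to 0.114). Odc1, the rate-limiting enzyme of polyamine synthesis, stood at 142, 116, 114, 146 and 114 CPM in mSOD and at 42.7, 50.2, 62.1, 76.5 and 73.8 CPM in wild type. Odc1 rose without overlap by 0.89 (SE 0.17, adjusted p = 0.00566; within P6362 0.82, adjusted p = 0.0173), was not called without wild-type replicate 3 (adjusted p = 0.0629), and was the only call of 14 tested polyamine genes (median 0.14).

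Other stress and protein quality lists held few or no calls. No member was called among 18 aminoacyl-tRNA synthetases (median 0.19), 22 endoplasmic reticulum chaperones and degradation genes (median −0.09), 18 heat shock proteins (median −0.00), 34 proteasome and autophagy genes (median −0.13), 22 p53 and cell death genes (median 0.34) or 18 interferon and MHC class I genes (median 0.08). With edgeR's threshold these counts of 0 stand against 0.541% of all genes called, so lists of this size would hold few calls at the background rate. Their counts at an unadjusted p under 0.05 were 3, 1, 3, 11, 3 and 3 in that order, and DESeq2 called 1 proteasome and autophagy gene and none in the other lists. Genes of neuronal signalling likewise had no edgeR call among 32 ion channels (median 0.16), 30 transmitter receptors (median 0.07) and 18 immediate early genes (median 0.12), with 6, 3 and 1 at an unadjusted p under 0.05 and 1 ion channel called by DESeq2. These counts are from the fit of all 54 libraries. Within P6362, 2 of 30 tested proteasome and autophagy genes and 1 of 18 heat shock proteins fell, and the other lists without a call again had none. Among 19 antioxidant genes 11 had a log2 change below 0 (median −0.05). Of these 19, 3 lay wholly below and 0 wholly above wild type, against 1.57% and 1.23% of all genes tested. Only Mt1, a metal-binding metallothionein, was called. It stood at 268, 248, 273, 429 and 142 CPM in mSOD and at 107, 156, 112.2, 125 and 147 CPM in wild type, overlapping in mSOD replicate 5 (log2 change 0.98, SE 0.24, adjusted p = 0.0315). The Mt1 call was lost without mSOD replicate 1 or 4 or wild-type replicate 3, 4 or 5 (adjusted p up to 0.235).

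**Figure D2:**
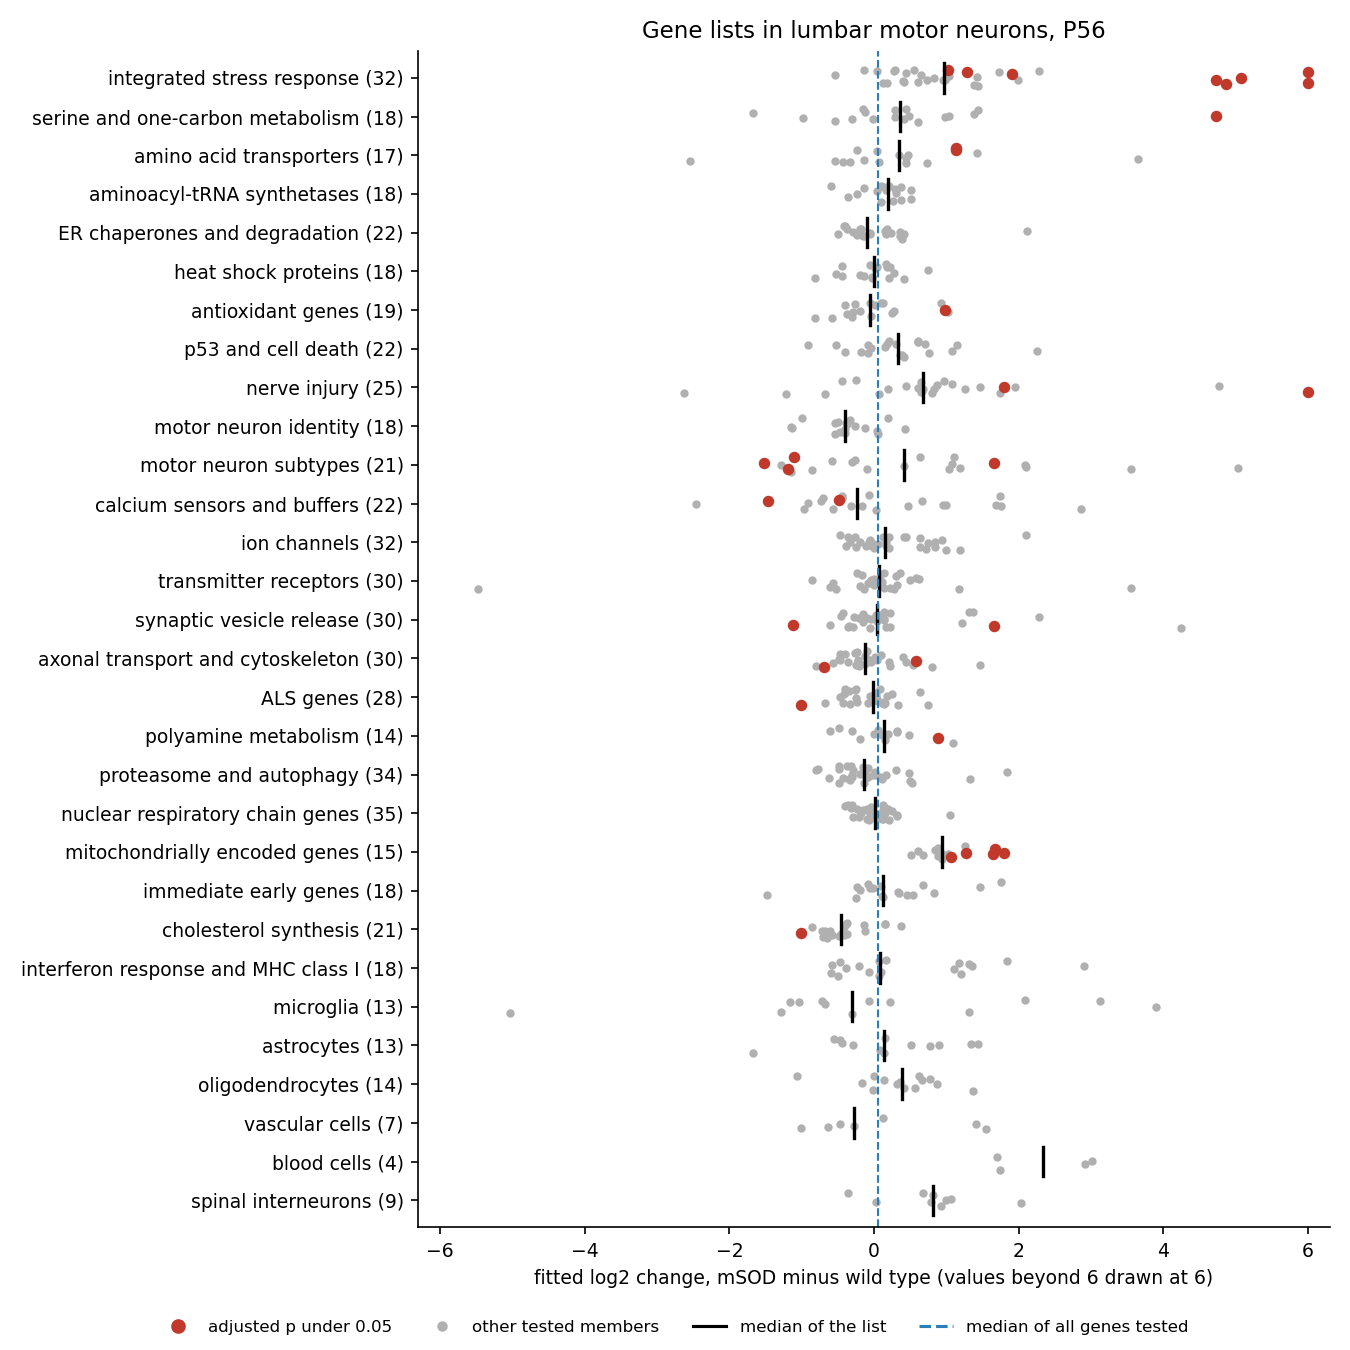
Log2 change of mSOD against wild type (horizontal axis) for each tested member of the 30 gene lists; red points are called genes, grey points are not, the black bar is each list's median and the dashed line the median of all genes tested, 0.05. The integrated stress response has 8 calls and a median of 0.97, the mitochondrially encoded genes have 5 calls and a median of 0.95, and the blood cell markers have no call and the highest median, 2.33; values beyond 6 are drawn at 6.

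The nerve injury response is a group of genes that motor neurons switch on after their axons are cut. Of 25 tested members 2 rose, Atf3 and Sox11, and none fell (median 0.68, 20 above 0). No member lay wholly above wild type and 1 lay wholly below, against 1.23% and 1.57% of all genes tested. Sox11, a transcription factor of axon growth, stood at 20.2, 11.01, 25.8, 13.9 and 18.8 CPM in mSOD and at 15.8, 9.90, 1.73, 6.52 and 3.92 CPM in wild type. It rose by 1.79 (SE 0.40, adjusted p = 0.0185; within P6362 2.15, adjusted p = 0.0298), with P11355 wild-type replicate 1 inside the mSOD range. Its call was lost without wild-type replicate 3 or 5 (adjusted p up to 0.194) and without the project term (1.17, adjusted p = 0.0967). Sprr1a, among the most strongly induced genes after axotomy, stood at 4.82, 0, 0, 2.37 and 0 CPM in mSOD and at 0, 0, 0, 46.2 and 1.07 CPM in wild type and was not called (adjusted p = 0.406). Its highest SC P56 value was in wild-type replicate 4.

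Motor neuron subtype genes included calls in both directions, with 1 higher and 3 lower of 21 tested. The list median was 0.41 in this fit, 0.04 without the project term, and −0.24 within P6362 and −0.22 with the 10 SC P56 libraries alone, where fewer members were tested. Chodl, a membrane protein that marks fast motor neurons, stood at 392.1, 251, 199.8, 344 and 295 CPM in mSOD and at 1029, 684, 1015, 812 and 946 CPM in wild type. The highest mSOD library was well under the lowest wild-type library, and Chodl fell by 1.52 on the log2 scale (SE 0.36, adjusted p = 0.0335; within P6362 −1.65, adjusted p = 0.000106). Mmp9, a secreted protease of the most vulnerable fast motor neurons, stood at 59.6, 36.6, 67.4, 74.8 and 56.4 CPM in mSOD and at 59.5, 107, 171, 130.4 and 123 CPM in wild type. It fell by 1.2 (SE 0.30, adjusted p = 0.049; within P6362 −1.28, adjusted p = 0.00419), with wild-type replicate 1 among the mSOD values and no call without the project term (adjusted p = 0.0817). Both calls were near the threshold: Chodl passed in 3 and Mmp9 in 1 of the 10 fits without 1 library, with adjusted p up to 0.149 and 0.262, both without wild-type replicate 3. Chodl passed only without mSOD replicate 1 or wild-type replicate 1 or 2, and Mmp9 only without wild-type replicate 1.

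Sv2a, a synaptic vesicle protein more abundant in slow motor neurons, was the subtype gene that rose. It stood at 122, 155, 126, 63.3 and 188 CPM in mSOD and at 48.4, 56.5, 14.2, 39.7 and 61.0 CPM in wild type, with no overlap (log2 change 1.66, SE 0.39, adjusted p = 0.0305), but was not called within P6362 (1.75, adjusted p = 0.166) or without mSOD replicate 2 or 5 or wild-type replicate 3 or 4 (adjusted p up to 0.211). In bulk libraries fewer cells of a subtype and less RNA per cell cannot be told apart.

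No motor neuron identity gene of 18 tested was called by edgeR, although 8 had an unadjusted p under 0.05, 14 had a log2 change below 0 and the median was −0.40 (DESeq2 called 1). Summed over that list, mSOD libraries held 17607, 20663, 20862, 21795 and 14943 CPM and wild-type libraries 32852, 27693, 25146, 25335 and 29012 CPM, without overlap. Nefl, the light neurofilament chain and a large share of this sum, stood at 5035, 6067, 5817, 5420.1 and 4597 CPM in mSOD and at 10631, 7782, 7587, 7725 and 8101 CPM in wild type. These ranges did not overlap, yet Nefl was not called over all libraries (log2 change −0.55, adjusted p = 0.194), while it was within P6362 (−0.55, adjusted p = 0.0151). The change of Nefm was −0.54 (adjusted p = 0.248), and that of Ret, the receptor for glial neurotrophic factors, was 0.43 (adjusted p = 0.186).

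The gene with the smallest p was Hpcal1, a neuronal calcium sensor of the visinin-like family. It stood at 105, 78.7, 99.9, 108 and 76.6 CPM in mSOD and at 150.02, 165, 315, 246 and 249.5 CPM in wild type. No mSOD library reached the lowest wild-type value, and Hpcal1 fell by 1.47 on the log2 scale (SE 0.19, adjusted p = 6.2e-06; within P6362 −1.55, adjusted p = 4.68e-05), with an adjusted p of at most 0.000352 when any 1 library was left out. Of 22 tested calcium sensors and buffers 2 fell, Hpcal1 among them, and none rose (median −0.24).

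Cd24a, a small glycoprotein anchored at the cell surface, stood at 297, 338, 286, 348 and 303 CPM in mSOD and at 1120.8, 777, 859, 769.6 and 755 CPM in wild type, and fell by 1.41 (SE 0.26, adjusted p = 0.00312; within P6362 −1.35, adjusted p = 1.84e-05). Itm2a, a type II membrane protein, stood at 65.7, 42.7, 52.2, 55.9 and 55.3 CPM in mSOD and at 673, 399, 358, 213 and 287 CPM in wild type. It had the largest decrease of these genes, by 2.31 (SE 0.48, adjusted p = 0.0137; within P6362 −2.41, adjusted p = 2.5e-06), and both genes were far from overlap. The Itm2a call was lost without wild-type replicate 3 (adjusted p = 0.0852), while that of Cd24a was kept in all 10 such fits.

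Fxyd7, a brain regulator of the sodium pump, stood at 388, 374, 353, 305 and 402 CPM in mSOD and at 204, 655, 1083, 923 and 867 CPM in wild type. Wild-type replicate 1, from P11355, was the lowest library of all, and Fxyd7 was lower in P11355 than in P6362 (log2 −1.19, adjusted p = 0.00115). With the project term it fell by 1.41 in mSOD (SE 0.26, adjusted p = 0.00312; within P6362 −1.40, adjusted p = 2.41e-05), and without it the change was −1.03 (adjusted p = 0.0592). Rab3b, a vesicle GTPase, and Sv2a were the calls among 30 tested synaptic release genes (median 0.03). Rab3b stood at 189, 169, 214, 183 and 154 CPM in mSOD and at 175, 308, 496, 381 and 391 CPM in wild type. It fell by 1.11 (SE 0.22, adjusted p = 0.00861; within P6362 −1.23, adjusted p = 0.000158), with wild-type replicate 1 again inside the mSOD range, and was not called without wild-type replicate 3 (adjusted p = 0.0852). Tpd52l1 and Fam84a also fell without overlap, by 1.03 and 1.63 on the log2 scale (adjusted p = 0.0279 and 0.0325). Tpd52l1 was lost without mSOD replicate 2 or 5 or wild-type replicate 3 or 4 (adjusted p up to 0.179), and Fam84a without mSOD replicates 1 to 4 or wild-type replicates 3 to 5 in turn (up to 0.181).

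**Figure D3:**
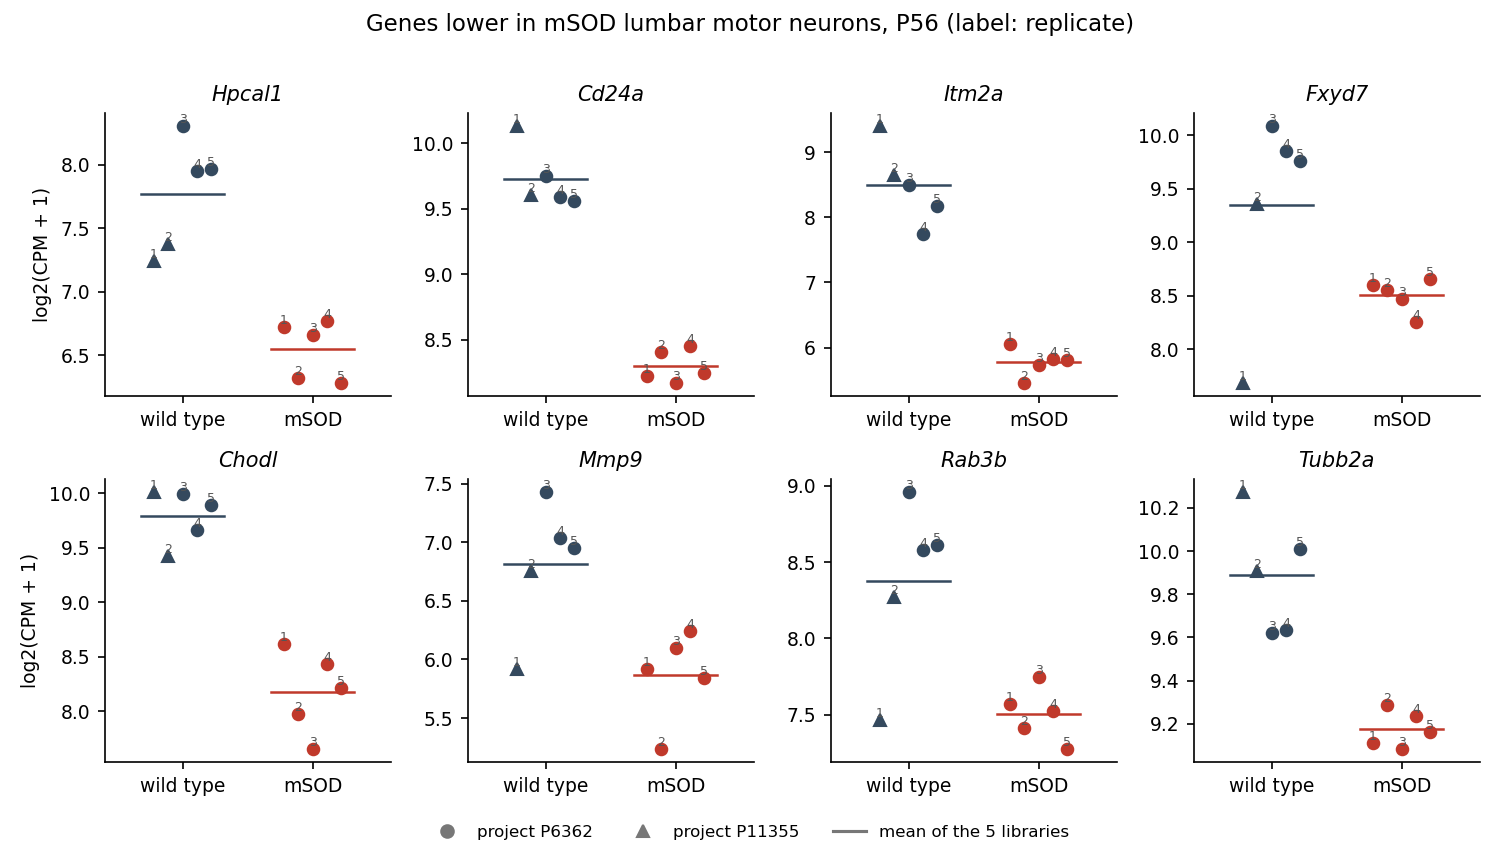
Expression of 8 genes that fell in SC P56 mSOD libraries, as log2(CPM + 1) on the vertical axis for each library; circles are P6362 libraries, triangles P11355 libraries, and the line is the mean of 5. Hpcal1, Cd24a, Itm2a, Chodl and Tubb2a show no overlap, whereas wild-type replicate 1 reaches into the mSOD range in Mmp9 and Rab3b and lies under it in Fxyd7.

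Among 30 tested genes of axonal transport and the cytoskeleton 1 rose and 1 fell, 19 had a log2 change below 0, and 7 lay wholly below and 2 wholly above wild type, against 1.57% and 1.23% of all genes. Tubb2a, a neuronal beta-tubulin, stood at 552, 624, 541, 601 and 571 CPM in mSOD and at 1235, 959, 786, 793 and 1031 CPM in wild type. It fell without overlap by 0.69 (SE 0.14, adjusted p = 0.0112; within P6362 −0.60, adjusted p = 0.0203), except without wild-type replicate 5 (adjusted p = 0.0763), and its near-identical copy Tubb2b may share reads with it. Tubb3 did not overlap either but was not called (log2 change −0.56, adjusted p = 0.0593; DESeq2 adjusted p = 0.00522). Ank3, which encodes ankyrin-G of the axon initial segment, stood at 227, 231, 201, 213 and 249.8 CPM in mSOD and at 162, 145, 134, 151 and 170.0 CPM in wild type. Ank3 rose by 0.57 (SE 0.14, adjusted p = 0.0374), a call kept in only 2 of 10 fits without 1 library (without mSOD replicate 3 or wild-type replicate 1; adjusted p up to 0.244).

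Of 28 tested genes linked to ALS by mutation, 1 fell and none rose (median −0.02). In cholesterol synthesis 18 of 21 tested genes had a log2 change below 0 (median −0.45) and 1 was called. Wholly below wild type lay 5 of them, against 1.57% of all genes tested. Hsd17b7, a late enzyme of the pathway, stood at 22.8, 28.5, 38.7, 32.5 and 21.0 CPM in mSOD and at 75.8, 52.1, 62.1, 62.3 and 54.5 CPM in wild type and fell by 1.01 (SE 0.22, adjusted p = 0.0137; within P6362 −1.07, adjusted p = 0.0249). It was not called without wild-type replicate 3 or 4 (adjusted p up to 0.0833). Fdft1, which makes squalene, had a change of −0.68 (adjusted p = 0.0975) and Nsdhl one of −0.65 (adjusted p = 0.104); with DESeq2 their adjusted p were 0.0334 and 0.0412.

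Mitochondrially encoded RNA moved with project as well as with genotype. With the project term all 15 tested genes had a log2 change above 0, 5 rose (mt-Rnr1, mt-Rnr2, mt-Co2, mt-Nd4l and mt-Nd5) and the median was 0.95. Without that term 7 of the 15 were below 0, 4 were called and the median was 0.01; within P6362 alone 14 rose, all but mt-Nd4l, and the median was 1.14. Mitochondrial genes took 8.94, 6.56, 8.37, 9.29 and 8.34% of counts in mSOD, 3.73, 4.59 and 3.92% in the P6362 wild-type libraries, and 15.2 and 10.2% in the P11355 wild-type libraries. All mSOD libraries therefore lay above the wild-type libraries of their own project and below both P11355 libraries. What else differed between the projects was not tested, and without wild-type replicate 3 the list had 1 call.

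The mitochondrial ribosomal RNAs were higher in mSOD than in the wild-type libraries of either project. mt-Rnr1, the small ribosomal RNA, stood at 2929.6, 2371, 3117, 4148 and 2305 CPM in mSOD and at 1849, 1266.9, 746, 994 and 438 CPM in wild type, all mSOD libraries being higher. It rose by 1.80 (SE 0.30, adjusted p = 0.00157; within P6362 2.02, adjusted p = 0.00964) and kept its call in all 10 fits without 1 library. mt-Rnr2, the large ribosomal RNA, stood at 15519, 7039, 15735, 16456 and 13648 CPM in mSOD and at 4859, 3318, 3773, 4680.4 and 2943 CPM in wild type and rose by 1.68 (SE 0.36, adjusted p = 0.0171; within P6362 1.83, adjusted p = 0.0216). It lost the call without wild-type replicate 3, 4 or 5 (adjusted p up to 0.114). mt-Co2, a cytochrome oxidase subunit, stood at 7842, 6618, 6578, 7536 and 6147 CPM in mSOD and at 16228, 8565, 2496, 3189 and 3103 CPM in wild type. Its highest values were in the P11355 wild-type libraries and its lowest in the P6362 wild-type libraries. mt-Co2 rose by 1.07 with the project term (SE 0.23, adjusted p = 0.0171) and by 1.23 within P6362 (adjusted p = 4.68e-05), but its change without the term was 0.05 (adjusted p = 0.968), and it lost the call without mSOD replicate 4 or wild-type replicate 3, 4 or 5 (adjusted p up to 0.187). None of 35 tested nuclear genes of the respiratory chain was called by edgeR or DESeq2 (median 0.01), and 4 had an unadjusted p under 0.05.

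**Figure D4:**
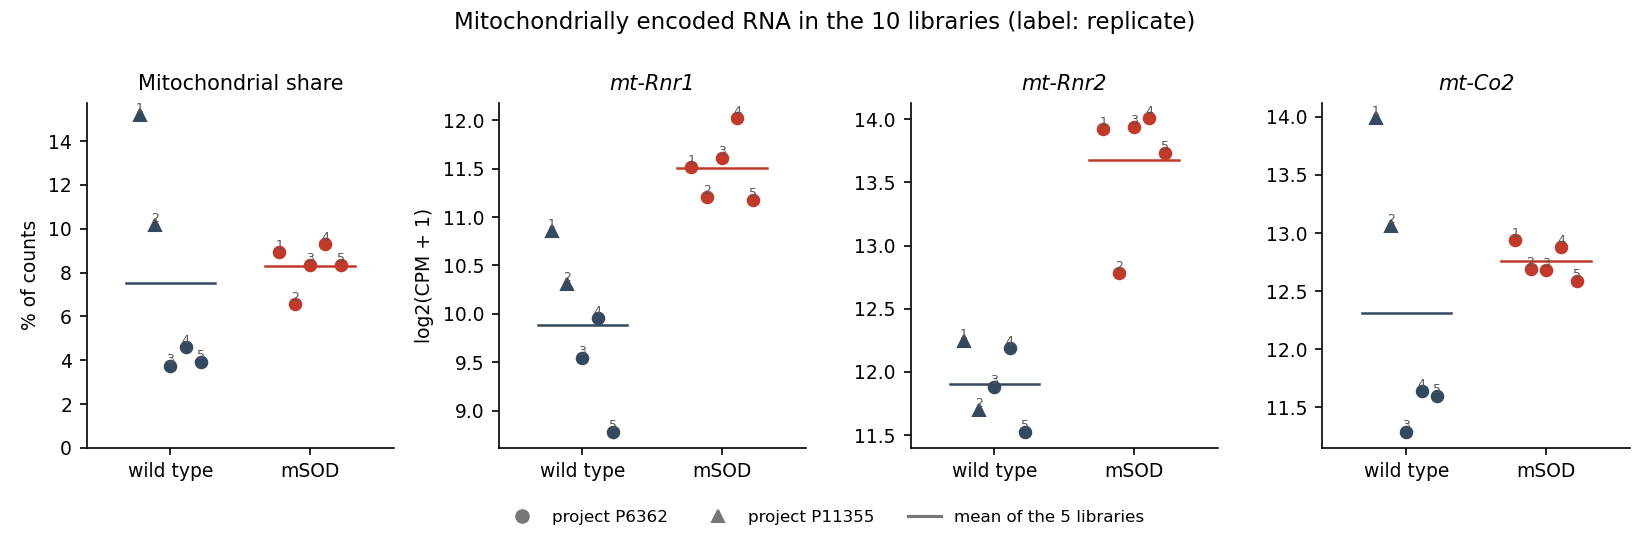
Share of counts on mitochondrially encoded genes (percent) and CPM of mt-Rnr1, mt-Rnr2 and mt-Co2 in each SC P56 library; circles are P6362 libraries and triangles P11355 libraries. The P11355 wild-type libraries have the highest mitochondrial shares (15.2 and 10.2%), whereas mt-Rnr1 and mt-Rnr2 are higher in all 5 mSOD libraries than in all 5 wild-type libraries.

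Beyond the cases given with each gene, some calls depended on which libraries entered the edgeR fit. With the 10 SC P56 libraries alone, adjusted p was 0.0712 for Ddit3, 0.102 for Fgf21, 0.0615 for Vldlr, 0.0853 for Slc7a1, 0.0567 for Odc1, 0.065 for Mt1, 0.0902 for Sv2a, 0.156 for Tubb2a, 0.165 for Ank3, 0.065 for Hsd17b7 and 0.166 for mt-Nd4l. With the 18 SC libraries it was 0.0596 for Atf4, 0.115 for Atf3, 0.0579 for Nupr1, 0.115 for Slc7a1, 0.0994 for Mt1, 0.0906 for Sox11, 0.319 for Sv2a, 0.067 for Rab3b, 0.0587 for Tubb2a, 0.121 for Ank3 and 0.0994 for mt-Nd4l. Hpcal1, Cd24a, Itm2a, Chodl, Phgdh and mt-Rnr1 kept their calls in both of these fits and without the project term. Within P6362 it was 0.0756 for Pycr1, 0.0768 for Mt1, 0.069 for Ank3, 0.0926 for Trim66 and 0.22 for mt-Nd4l. Without the filter on low counts, Ank3 (adjusted p = 0.316) was not called.

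Of the 100 called genes, 10 are annotated as pseudogenes, against 2520 of the 18493 genes tested, and 6 lie in the mitochondrial genome, and 35 of the 100 also differed between projects, as did 3976 of all genes tested (21.5%). Gm10222, annotated as an unprocessed pseudogene, was called (log2 change 1.69, adjusted p = 0.00312) but was not called within P6362 (adjusted p = 0.217). Gm9347, annotated as a processed pseudogene, had a log2 change of 4.18 (adjusted p = 0.0176), a call lost without wild-type replicate 4 or 5 (adjusted p up to 0.0832). Eef1a1, a translation elongation factor with many processed copies, stood at 64.4, 30.8, 58.4, 60.9 and 31.8 CPM in mSOD and at 18.5, 26.8, 17.7, 14.2 and 18.2 CPM in wild type (log2 change 1.38, adjusted p = 0.0183). How reads were divided between genes and such copies was not tested, so these calls are uncertain, and the Eef1a1 call was lost without mSOD replicate 1 or 4 or wild-type replicate 3, 4 or 5 (adjusted p up to 0.114). The Gm10222 call was lost without wild-type replicate 3 (adjusted p = 0.0546). Fitted effects of Gm10222 and mt-Nd4l were 1.69 and 1.65 in SC P56 and −0.0892 and −0.0869 in SC P112. At P56 they were −0.246 and −0.238 in the cranial nucleus CN3/4, 0.485 and 0.531 in CN10, and −0.221 and −0.324 in CN12. Whether both entries count the same reads was not tested, so they may not be separate results.

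RNA of other cells was followed with marker lists. No marker was called by edgeR in the fit of all 54 libraries. Tested were 13 for microglia, 13 for astrocytes, 14 for oligodendrocytes, 7 for vascular cells, 4 for blood cells and 9 for spinal interneurons. The counts at an unadjusted p under 0.05 were 2, 2, 1, 0, 4 and 0 in that order, and DESeq2 called 1 blood marker and no other. Within P6362 edgeR called 1 of 9 tested astrocyte markers, lower in mSOD, and no other marker. Without the filter on low counts, edgeR calls included the haemoglobin gene Hbb-bs (log2 change 2.98, adjusted p = 7.88e-19). They also included the interneuron marker Slc17a6 (2.02, adjusted p = 3.35e-09). All 4 tested blood markers were haemoglobin genes, which share sequence. Summed CPM ranged from 0 to 16.6 in mSOD and 10.7 to 22.9 in wild type for microglia. Of the 13 tested microglial markers, 5 had a log2 change above 0 and 8 below. Csf1r, the microglial growth factor receptor, had 0 counts over the mSOD libraries and 21 over the wild-type libraries. Tmem119 went the other way, with 6 and 0 counts. Astrocyte sums were 1051 to 1169 CPM in mSOD and 716 to 1266.9 CPM in wild type, oligodendrocyte sums 309 to 844 and 224 to 756 CPM, and vascular sums 8.98 to 16.6 and 9.24 to 19.8 CPM. Blood sums were 81.9 to 757 CPM in mSOD and 39.7 to 197 CPM in wild type, the highest in mSOD replicate 3 (Hbb-bs 176 CPM). Interneuron sums were 286, 384, 171, 87.0 and 514 CPM in mSOD and 649.8, 210.3, 47.9, 109 and 226 CPM in wild type, overlapping fully, with the glycine transporter Slc6a5 and the glutamate transporter Slc17a6 highest among them. The median log2 changes were −0.31 for microglia, 0.13 for astrocytes, 0.39 for oligodendrocytes, −0.28 for vascular cells, 2.33 for blood cells and 0.82 for interneurons. The microglial median was −1.46 without the project term and 1.03 without the P11355 wild-type libraries, the astrocyte median −0.16 and 0.56, and the oligodendrocyte median was 0.85 within P6362, where all 12 tested markers were above 0. The part of these cells in the changes above was not tested.

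Whether the mSOD effect in SC P56 differed from that elsewhere in the series was tested directly, as a difference between effects. SC P112 has 3 mSOD and 5 wild-type libraries over 3 projects, and at P56 each of the cranial nuclei CN3/4 (oculomotor and trochlear), CN10 (vagus) and CN12 (hypoglossal) has 3 and 3 libraries, all from P11355. Because no cranial library came from P6362, the nucleus and the project of the mSOD libraries cannot be told apart in these differences. The 4 differences share the SC P56 libraries.

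Against SC P112 the effect differed in 1 gene (0.00541%), and 1180 genes had an unadjusted p under 0.05. That gene was Sprr1a, with a fitted difference of −15.4 on the log2 scale (SE 2.24, adjusted p = 0.00452), a size that depends on the prior count because several libraries were at 0. The call was lost without SC P56 wild-type replicate 4, the library at 46.2 CPM, and with the 18 SC libraries alone, and Sprr1a was not among the 14 genes called by DESeq2. It was at 462 ± 352 CPM (SD, n = 3) in SC P112 mSOD libraries and at most 0.888 CPM in SC P112 wild-type libraries, against at most 4.82 CPM in SC P56 mSOD. No other gene passed the test of that difference, which does not show that the effects were equal, and the SC P112 effects of the genes described above stand beside those of SC P56. Atf4 changed by 1.02 at P112 (adjusted p = 0.033), Ddit3 by 1.90 (adjusted p = 0.0149), Fgf21 by 5.68 (adjusted p = 0.00437) and Odc1 by 0.91 (adjusted p = 0.00777). Phgdh had 26.1 ± 32.5 CPM (SD, n = 3) in SC P112 mSOD and 1.91 ± 0.687 CPM (SD, n = 5) in wild type and was not called there (adjusted p = 0.0804). Chodl changed by −3.06 at P112 (adjusted p = 0.000263), Hpcal1 by −1.52 (adjusted p = 0.000164), and Itm2a by −3.54 (adjusted p = 0.00225).

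Against the mean of the 3 cranial nuclei at P56 the effect differed in 29 genes (0.157%; 23 or 0.124% towards higher and 6 or 0.0324% towards lower values in SC), and 1874 genes had an unadjusted p under 0.05. Among genes described above, Hpcal1 differed by −1.42 (SE 0.229, adjusted p = 0.000949), Phgdh by 4.89, Cd24a by −1.69, Slc38a1 by 1.16, Ddit3 by 2.06 (SE 0.464, adjusted p = 0.0433) and mt-Rnr1 by 1.77. Hpcal1 was at 26.5 ± 6.63 CPM (SD, n = 3) in wild type and 29.6 ± 2.86 CPM (SD, n = 3) in mSOD in CN3/4, and at 68.0 ± 3.22 CPM (SD, n = 3) and 63.4 ± 8.04 CPM (SD, n = 3) in CN12. Phgdh means in the cranial P56 groups ran from 1.43 to 7.26 CPM, against 31.4 CPM in SC P56 mSOD. The genes Trim66, Rab15 and Fam163b, of which Rab15 is an endosomal GTPase, differed by 2.95, 2.43 and 3.68. In SC P56 itself Trim66 stood at 8.32, 15.2, 10.1, 7.99 and 8.68 CPM in mSOD and at 5.16, 3.74, 0.863, 4.74 and 1.43 CPM in wild type. Rab15 rose by 2.01 and Fam163b by 2.85. Rab15 was not called without the project term (adjusted p = 0.0531). The SC P56 calls of Trim66, Rab15 and Fam163b were lost without wild-type replicate 3 (adjusted p = 0.0629, 0.0852 and 0.0976). With the 10 SC P56 libraries alone adjusted p was 0.131 for Trim66 and 0.0613 for Fam163b, and with the 18 SC libraries 0.0868 for Trim66. Without wild-type replicate 3 the 29 genes became 6.

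Differences from CN3/4 and from CN12 were also tested singly, and that from CN10 was not. Hpcal1 was the 1 gene that differed from CN3/4 (−1.63, SE 0.30, adjusted p = 0.033; 1142 genes had an unadjusted p under 0.05), and there was no such gene without mSOD replicate 5 or wild-type replicate 3 or 5. From CN12, 52 genes differed (0.281%; 40 or 0.216% towards higher and 12 or 0.0649% towards lower values in SC), among them Slc38a1 by 1.55, Fxyd7 by −2.10, the adhesion gene Opcml by 2.73, mt-Rnr1 by 2.33 and Hpcal1 by −1.37. The mitochondrial share moved the other way in CN12 P56, at 3.38 to 6.40% in mSOD and 6.001 to 12.1% in wild type, and its part in these differences was not tested. The CN12 count was 0 without wild-type replicate 3 and 116 without wild-type replicate 1, so it rested on single SC wild-type libraries.

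**Figure D5:**
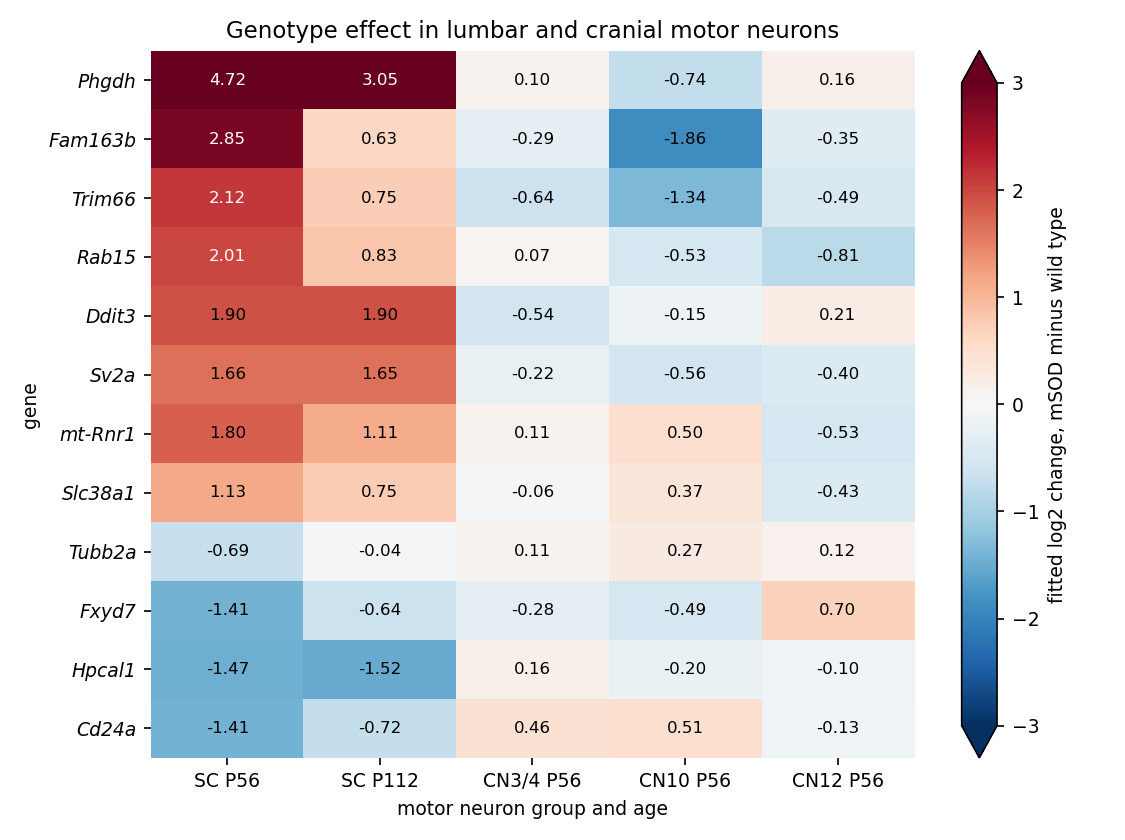
Fitted log2 change of mSOD against wild type for 12 genes (vertical axis) in SC at P56 and P112 and in CN3/4, CN10 and CN12 at P56 (horizontal axis), with the value printed in each cell and colour running from lower to higher in mSOD. Hpcal1 is −1.47 and −1.52 in SC at P56 and P112 and lies near 0 in the cranial nuclei, whereas Phgdh is 4.72 in SC P56 and 3.05 in SC P112.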

How the data were processed

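The deposited count table gives unnormalized whole-number read counts in 54 libraries for 55354 mouse genes plus human SOD1. A second table holds RPKM values computed by the authors. It served only to check labels and to rank markers by abundance. Each of its 54 columns tracked the count column of the same library most closely. Reads were aligned with STAR 2.7.0e and builds mm39 and GRCm39 are named, per the submitters' processing notes; the counting program and strand setting are not given in the sources used here. RefSeq promoters were on GRCm38.p6. Symbols were matched for 52079 genes.

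Counts were fitted with edgeR 4.0.16 (limma 3.58.1, R 4.3.3): TMM, filterByExpr, 16 group means plus project, robust quasi-likelihood F test (two-sided), Benjamini-Hochberg adjustment over 18493 mouse genes with human SOD1 left out, threshold 0.05, common dispersion 0.113. All groups entered so that the spread and the project effect were estimated from 54 libraries. CPM use TMM-scaled library sizes; log2 changes are fitted. Where a genotype had 3 counts or fewer in all, a ratio with its 95% counting interval is given. DESeq2 1.42.0, RLE size factors, no filter, no project term, fits within P6362, within SC P56 or SC, library sizes without mitochondrial genes and human SOD1, and leaving out each SC P56 library were alternatives. Scripts were tested on simulated data. Figures used Python 3.11.15 and matplotlib 3.10.9. Of 657 entries in 30 lists, 654 were matched and 617 tested.

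The libraries and the lists were chosen with earlier results of these data known. Genes named are Sod1, up to 12 higher and 12 lower genes called in both the 54-library and the P6362 fit without overlap, called list members, in other lists the members with the smallest p up to 3, up to 5 genes per difference of effects, up to 3 each way that were weakest within P6362, and the most abundant markers; not every gene so chosen is described, and some are not reported here.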

Additional observations from a re-analysis of the deposited data

Results flagged for a closer look

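Single libraries stood apart from the other 4 of their genotype in 11 of 110 groups of 5 checked. Chance alone would flag about 1 in 20 groups of normally distributed values, a rate that may not hold for CPM near 0. The gap to the nearest library, divided by the range of the group, exceeded Dixon's 95% critical value in each. In mSOD these were replicate 4 for Nupr1 (24.6 CPM) and Shmt2 (50.6 CPM) and replicate 3 for Hbb-bs (176 CPM). In wild type, replicate 1 stood apart for Nefl (10631 CPM), Cd24a (1120.8 CPM), Tubb3 (1818 CPM) and Slc17a6 (417 CPM), and it is 1 of the 2 libraries of project P11355. Wild-type replicate 2 stood apart for Nupr1 (0.44 CPM), wild-type replicate 3 for Ret (214 CPM), and wild-type replicate 4 for Atf3 (0.593 CPM) and Sprr1a (46.2 CPM). For Atf3 and Nupr1 the wild-type values amount to 1 or 2 counts, and with the other 4 libraries at 0 any count would have been flagged.

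Differences between mSOD effects passed edgeR's adjusted p of 0.05 in 31 tests of the genes named here; all share the SC P56 libraries. The difference from SC P112 was that of Sprr1a (−15.4, fitted with several libraries at 0). From CN3/4 it was that of Hpcal1 (−1.63). From CN12 the log2 differences were higher in SC for Rab15 (2.82), Opcml (2.73), Trim66 (2.61), mt-Rnr2 (2.34), mt-Rnr1 (2.33), mt-Nd5 (2.16), mt-Nd4l (1.97), Gm10222 (1.91), Vldlr (1.78), mt-Co2 (1.65) and Slc38a1 (1.55). They were lower in SC for Fxyd7 (−2.10) and Hpcal1 (−1.37). From the mean of the 3 cranial nuclei they were higher for Nupr1 (7.52, fitted with groups near 0), Phgdh (4.89), Fam163b (3.68), Trim66 (2.95), Rab15 (2.43), Ddit3 (2.06), Sv2a (2.05), mt-Rnr1 (1.77), Gm10222 (1.69), mt-Nd4l (1.66), mt-Nd5 (1.45) and Slc38a1 (1.16). They were lower for Cd24a (−1.69), Hpcal1 (−1.42), Fxyd7 (−1.38) and Tubb2a (−0.86). No cranial library was from P6362, and the nucleus and the project of the mSOD libraries cannot be told apart here.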

How the results depend on the processing

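The count of 100 genes between mSOD and wild type became 168 within P6362, 64 with the 10 SC P56 libraries alone, 61 with the 18 SC libraries, 178 without the project term, 389 without the filter on low counts and 318 with DESeq2. All 100 genes kept their sign without the project term, where 58 of them were called, and with DESeq2, where 91 were. Leaving out 1 SC P56 library at a time gave 17 (without wild-type replicate 3) to 139 (without wild-type replicate 1). The difference from SC P112, 1 gene, became 0 with the SC libraries alone, 73 without the filter and 14 with DESeq2, and 0 to 2 when 1 library was left out. The difference from CN3/4, 1 gene, became 0 without the project term, 68 without the filter and 19 with DESeq2, and 0 to 3 when 1 library was left out. From CN12, 52 genes became 87 without the P11355 wild-type libraries, 0 without the project term, 349 without the filter and 160 with DESeq2, and 0 to 116 when 1 library was left out. From the mean of the cranial nuclei, 29 genes became 46 without the P11355 wild-type libraries, 16 with RLE size factors, 234 without the filter and 133 with DESeq2, and 6 to 32 when 1 library was left out. The cause of these shifts was not tested, apart from the construction of the alternatives: the P6362 and SC fits test fewer genes and use fewer libraries, and removing the filter adds genes of very low counts.

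For the named genes, 2091 combinations of gene and alternative kept their side of the threshold, 216 lost the threshold and 65 gained it. No gene called in the 54-library fit changed sign. Some genes not called there did, among them Sprr1a, whose log2 change ran from −3.61 to 3.86 over the alternatives. Such changes of sign are included in the 2091. DESeq2 gave no adjusted p for some genes of low count, among them Pycr1 and Gm9347, which are not counted here. No paired analysis was possible because the labels give no replicate numbers that the genotypes share. With 1 mSOD project and 3 wild-type libraries in it, genotype effects lean on wild-type replicates 3 to 5 and on the project term, whose size is estimated from the other groups as well. At 1542114 to 4732613 counts per library, genes at a few CPM rest on few counts per library, which limits the precision of their changes.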
